A study of Mus musculus with 60 samples.

Results

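The 41 genes described here encode the enzymes that carry glucose carbon from its entry into glycolysis to the end of the tricarboxylic acid (TCA) cycle. They were taken by symbol from the deposited tables, and all 41 listed symbols were found among the 21999 genes there. By role they are 15 genes of glycolysis, 2 of lactate dehydrogenase, 11 of pyruvate entry and the pyruvate dehydrogenase complex, and 13 of the TCA cycle. Poly(A) RNA was sequenced from 3 brain regions of 20 mice: prefrontal cortex, striatum and hippocampus. The mice were wild type (WT) or Glo1 knockout (KO). From week 8 to week 12 of life they received chow that held, in 100 g, 1.4 mg of vitamin B6 (normal diet) or 5 µg (lacking diet). There were thus 4 groups of 5 mice: WT on the normal diet, WT on the lacking diet, KO on the normal diet and KO on the lacking diet. Every mouse gave 1 library of each region, and how the Glo1 allele was made and on which strain is not given in the sources used here. All KO libraries carried batch number 1 and all WT libraries batch number 2, so genotype and batch cannot be told apart.

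Glycolysis splits glucose in the cytosol and yields pyruvate. Its triose phosphate intermediates, which aldolase makes and triose phosphate isomerase interconverts, break down spontaneously to methylglyoxal, the reactive aldehyde that Glo1 clears with glutathione. Pyruvate is either reduced to lactate or carried into mitochondria, where the pyruvate dehydrogenase complex turns it into acetyl-CoA for the TCA cycle. Pyruvate dehydrogenase kinases switch that complex off by phosphorylation.

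The 60 libraries held between 7640047 and 13928265 counts, and the 41 genes took 0.483 to 0.741% of them. Glo1 gave 299 to 734 counts in the 30 WT libraries and 0 to 10 counts in the 30 KO libraries. The summed level of 6 striatal markers was 1437 to 1786 RPKM (counts relative to gene length and to the library total) in striatum and at most 40.9 elsewhere. The 5 cortical markers summed to 108.5 to 126 RPKM in prefrontal cortex and to at most 49.1 elsewhere, and the 5 hippocampal markers to 74.6 to 92.8 in hippocampus and to at most 28.7 elsewhere. In bulk tissue, fewer cells of a type and less RNA per cell cannot be told apart. Beside every regional value below stand different mixtures of cells: the median sum of 6 neuronal markers was 1608 RPKM in prefrontal cortex, 868 in striatum and 1220 in hippocampus, that of 6 oligodendrocyte markers 379.8, 1018 and 809.6, and that of 6 astrocyte markers 986.2, 844.9 and 1124. Choroid plexus markers, 5 genes, summed to 5.44 to 1232 RPKM in hippocampus and to at most 9.88 elsewhere. The part of cell mixture in the regional results was not tested.

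Transcript levels per length ran over a wide range within the pathway. Per length as deposited, Pkm, the pyruvate kinase of the last glycolytic step, was the highest, with a mean of 161.8 ± 22.9 RPKM in prefrontal cortex, 166.6 ± 24.5 in striatum and 159.9 ± 19.7 in hippocampus (SD, n = 20). Mdh1, the cytosolic malate dehydrogenase, followed at 147.6 ± 11.7, 148.2 ± 10.5 and 134.7 ± 10.3 RPKM. Hk2, the inducible hexokinase of muscle and fat, was the lowest at 0.928 ± 0.173, 0.697 ± 0.160 and 1.06 ± 0.142 RPKM. The order between genes depends on the gene length used. The deposited length of Aldoa is 3762 bases, against 1549 in its reference transcript, and that of Pkm 2599 against 2432. Rescaled to the reference transcript, an alternative added after seeing the data, Aldoa had the highest level in each region (298.3 ± 52.7, 224.4 ± 57.4 and 272 ± 59.7), Pkm ranked 4, 4 and 2, and Hk2 was still the lowest. Differences of 1 gene between regions do not depend on its length. The level of 5 genes is uncertain, since many of their reads of 75 bases could also come from another gene and how such reads were counted is not given in the sources used here. Of the 75-base stretches of the reference transcript, 80.3% in Gapdh, 67.5% in Pgk1, 65.4% in Eno1, 40.6% in Pgam1 and 24.8% in Mpc1 also occur in another annotated gene. The other 36 genes had less than 20% shared stretches, and 24 had none. Of the 41 genes, 16 overlap a gene on the opposite strand, among them Hk1, Pfkp, Aldoa, Tpi1 and Mdh1, and the strand setting of the counting is not given in the sources used here.

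Most isozyme sets had a dominant member in these tissues. Among hexokinases Hk1, the constitutive brain form, exceeded Hk2 in every region, at 45.7 ± 4.84, 25 ± 3.11 and 38.8 ± 4.06 RPKM in prefrontal cortex, striatum and hippocampus (SD, n = 20). Phosphofructokinase, the committed step, was led by the muscle-type Pfkm at 68.5 ± 6.65, 54.2 ± 5.94 and 58.0 ± 5.85 RPKM. Per deposited length the platelet-type Pfkp came next and the liver-type Pfkl was the lowest. Their mean ± SD ranges met in hippocampus, where Pfkp stood at 14.9 ± 2.37 and Pfkl at 12.9 ± 2.87 RPKM. The deposited length of Pfkp is 9395 bases, against 4145 in its reference transcript. Per reference transcript length hippocampal Pfkp and Pfkl stood apart, at 33.8 ± 5.38 and 15.2 ± 3.38. Pfkm and Pfkp then met in prefrontal cortex (70.4 ± 6.83 and 59.9 ± 8.12) and in striatum (55.6 ± 6.10 and 48.4 ± 8.00). Aldoa and Aldoc, the ubiquitous and the astrocyte-rich aldolase, lay close together per deposited length, at 122.8 ± 21.7 and 103.8 ± 13.4 RPKM in prefrontal cortex, 92.4 ± 23.6 and 87.1 ± 17.5 in striatum and 112.0 ± 24.6 and 105.5 ± 15.5 in hippocampus. Per reference transcript length Aldoa stood above Aldoc, for instance at 298.3 ± 52.7 against 121.5 ± 15.7 in prefrontal cortex. The neuronal enolase Eno2 stood above Eno1, for instance at 103.5 ± 13.5 against 13.5 ± 2.63 RPKM in prefrontal cortex, but the Eno1 level is among the uncertain ones. Ldhb exceeded Ldha in every region. The mitochondrial pyruvate carrier subunits Mpc1 and Mpc2 had means between 3.97 and 6.06 RPKM, but their deposited lengths of 2082 and 7344 bases far exceed the 961 and 1025 bases of the reference transcripts. Per reference transcript length Mpc2 was above Mpc1, at 35.2 ± 5.53 against 11.6 ± 1.65 in prefrontal cortex. For succinyl-CoA ligase the ATP-forming Sucla2 (46.2 ± 3.58, 46.6 ± 4.98 and 53.1 ± 4.53 RPKM) exceeded the GTP-forming Suclg2 (3.42 ± 0.523, 3.69 ± 0.341 and 3.18 ± 0.422). Cytosolic Mdh1 exceeded mitochondrial Mdh2, at 30.6 ± 3.69, 26.9 ± 4.51 and 30.8 ± 4.65 RPKM.

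**Figure D1:**
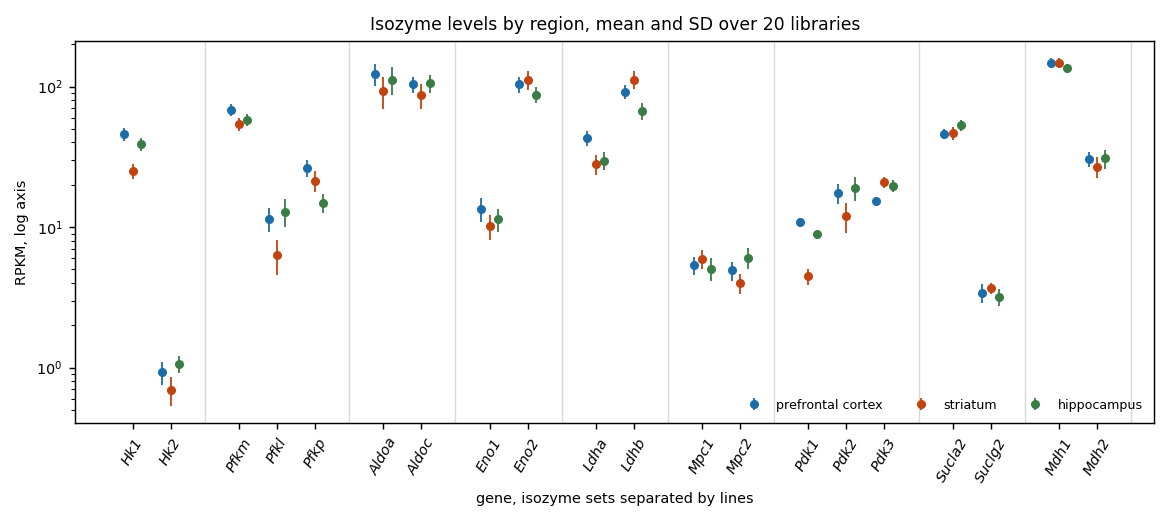
Mean level in RPKM (log axis) of each isozyme in prefrontal cortex, striatum and hippocampus, per deposited gene length, with bars for the SD over 20 libraries. Hk1, Eno2, Sucla2 and Mdh1 stand well above their partners in each region, while the SD bars of Aldoa and Aldoc overlap.

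The regions differed at most steps of the pathway, as they did in most of all genes tested, and the striatum was most often the lowest. In the edgeR fit of all 60 libraries, averaged over the 4 genotype and diet groups, 34 of the 41 genes differed between striatum and prefrontal cortex at an adjusted p under 0.05: 8 were higher in striatum and 26 lower. Of all 13930 genes tested, 69.9% were called in that comparison, 35.9% higher and 34% lower. Between hippocampus and prefrontal cortex 24 of the 41 were called, 9 higher in hippocampus and 15 lower, against 59.3% of all genes, 30.2% higher and 29.1% lower. Between striatum and hippocampus 34 of the 41 were called, 11 higher in striatum and 23 lower, against 66.4% of all genes, 33.6% higher and 32.9% lower. The 3 comparisons share libraries in pairs. On library totals without TMM scaling (edgeR's trimmed-mean factors) the hippocampus and prefrontal cortex split became 11 higher and 11 lower. The median log2 difference of all genes moved by less than 0.1 with that choice, from 0.01 to 0.07 in this comparison.

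Called against both other regions, 20 genes were lower in striatum: Hk1, Hk2, Pfkl, Aldoa, Aldoc, Tpi1, Pgk1 and Pgam1 of glycolysis, Mpc2, Pdha1, Dlat, Pdhx, Pdk1 and Pdk2 around pyruvate dehydrogenase, and Cs, Idh2, Idh3a, Idh3g, Dlst and Fh1 of the TCA cycle. Of all 13930 genes, 22.8% had this pattern. Without TMM scaling the same 20 and Mdh2 were called, and with the mouse as a block the same 20. With the mouse block and a scaling of each library for the GC content of transcripts, an alternative added after seeing the data, 18 of the 20 remained, Dlst and Idh2 did not, and Dld was added. In the other direction 7 genes were higher in striatum than in both others: Eno2, Ldhb, Mpc1, Pdk3, Pcx, Ogdh and Suclg1, against 24.4% of all genes. Without TMM scaling Ldhb, Pcx and Ogdh kept that call and Eno2, Mpc1, Pdk3 and Suclg1 did not, and with the mouse block and GC scaling Mpc1 did not. The prefrontal cortex was higher than both others in 9 genes, namely Hk1, Pfkm, Pfkp, Tpi1, Pgam1, Eno1, Ldha, Pdk1 and Idh3a, against 17.7% of all genes. Of these Idh3a and Tpi1 lost the call without TMM scaling, and also with RNA integrity as a covariate, and with the mouse as a block Aldoa and Gapdh were added. The hippocampus was higher than both others in 6 genes, Mpc2, Pdhb, Dlat, Dld, Pdhx and Idh3b, which include 4 subunits of the pyruvate dehydrogenase complex, against 14.7% of all genes. With the mouse block and GC scaling Dld, Pdhb and Pdhx lost that call, and with RNA integrity as a covariate Dld, Mpc2 and Pdhb did. Lower than both others were 6 genes in hippocampus (Pfkp, Eno2, Ldhb, Ogdh, Suclg2 and Mdh1) and 3 in prefrontal cortex (Pdhb, Pdk3 and Suclg1), against 13.6% and 17.6% of all genes. Suclg2 lost its call without TMM scaling, and Pdhb lost its own without TMM scaling and with the mouse block and GC scaling.

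**Figure D2:**
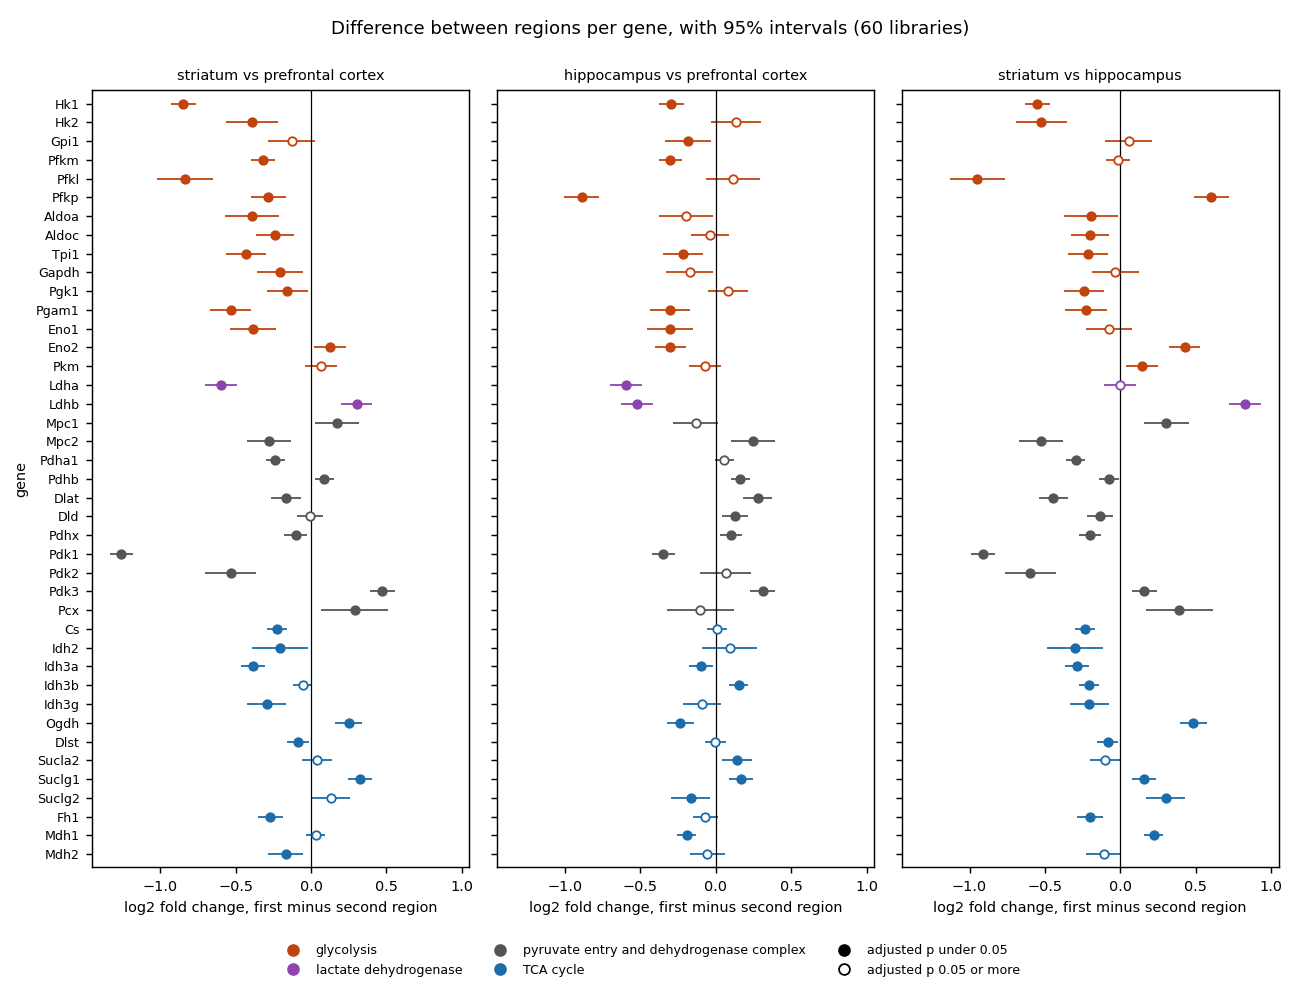
Log2 fold change between regions for each of the 41 genes, with bars for the 95% interval, in the 3 regional comparisons over 60 libraries; filled points have an adjusted p under 0.05. Most glycolysis points lie left of 0 for striatum against prefrontal cortex, where Pdk1, Hk1 and Pfkl reach the lowest values.

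Glycolysis genes were mostly lower in striatum than in prefrontal cortex. Of the 15 genes, 12 were lower and 1 (Eno2) higher in striatum than in prefrontal cortex, with Gpi1 and Pkm not called, and the median log2 difference was −0.32, against 0.01 for all genes. Hippocampus against prefrontal cortex gave 8 lower and 0 higher with a median of −0.20; the split was 6 lower and 1 higher without TMM scaling, 6 lower and 2 higher with RNA integrity as a covariate, and 10 lower and 0 higher with the mouse as a block. Striatum against hippocampus gave 8 lower and 3 higher (Pfkp, Eno2 and Pkm), also with a median of −0.20. With the mouse block and GC scaling these medians were −0.24, −0.14 and −0.17. Glycolysis transcripts were rich in GC, with a median of 54.7% against 51.9% for the 41 genes.

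Hk1, which binds mitochondria and starts glycolysis in neurons, had 33.8, 45.2 and 52.4 RPKM (lowest, median and highest of 20 libraries) in prefrontal cortex. In the striatum these values were 19.7, 24.99 and 30.3 RPKM, and in hippocampus 30.5, 38.6 and 46.5. Every striatal library lay below every library of the other regions. Its level was 1.80-fold lower in striatum than in prefrontal cortex (log2 difference −0.85, SE 0.04, adjusted p = 1.16e-26) and also lower than in hippocampus (−0.55, SE 0.04, adjusted p = 3.22e-18). Such a separation between the 20 and 20 libraries, with a call, was found in 4 of the 41 genes for striatum against prefrontal cortex (Hk1, Pdha1, Pdk1 and Idh3a), and in 18.3% of all genes. It was found in Pfkp alone for hippocampus against prefrontal cortex, with 10.9% of all genes. For striatum against hippocampus it was found in Hk1, Ldhb, Pdha1, Pdk1 and Idh3a, with 16.2% of all genes.

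The 3 phosphofructokinase genes had 3 different regional orders. Pfkl had 6.46, 11.2 and 14.9 RPKM (lowest, median and highest) in prefrontal cortex, 3.48, 6.60 and 9.26 in striatum and 7.91, 12.4 and 18.5 in hippocampus. The striatum was low and the ranges overlapped, with a log2 difference of −0.84 (SE 0.09, adjusted p = 4.03e-12) from the prefrontal cortex and −0.95 (SE 0.09, adjusted p = 5.29e-14) from the hippocampus. Pfkp had 19.6, 26.0 and 33.9 RPKM in prefrontal cortex, 16.5, 20.7 and 28.5 in striatum and 9.95, 14.6 and 19.2 in hippocampus. Here the hippocampus was lowest, without overlap with the prefrontal cortex (log2 difference −0.89, SE 0.06, adjusted p = 1.16e-20) and with overlap with the striatum, which was higher by 0.60 (SE 0.06, adjusted p = 4.25e-14). Pfkm was lower in both other regions than in prefrontal cortex, by −0.32 in striatum and −0.30 in hippocampus (SE 0.04 in both), and striatum and hippocampus did not differ by the test (−0.02, 95% interval −0.09 to 0.06).

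The genes of the triose phosphates from which methylglyoxal arises were lower in striatum than in prefrontal cortex. Against the prefrontal cortex the log2 difference was −0.39 (SE 0.09) in Aldoa, −0.24 (SE 0.06) in Aldoc, −0.43 (SE 0.07) in Tpi1 and −0.21 (SE 0.08) in Gapdh, all with an adjusted p under 0.05. With the mouse block and GC scaling they were −0.26, −0.20, −0.36 and −0.07, and Gapdh was no longer called (adjusted p = 0.2235). Against the hippocampus Aldoa, Aldoc and Tpi1 were lower by about the same amount, −0.20, −0.20 and −0.21, and Gapdh was not called (−0.03, SE 0.08). Between hippocampus and prefrontal cortex Tpi1 was called (−0.22, SE 0.07, adjusted p = 0.00338) and Aldoa, Aldoc and Gapdh were not, with adjusted p of 0.0543, 0.636 and 0.05005. With the mouse as a block Aldoa and Gapdh were called (adjusted p = 0.0376 and 0.0364).

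Lower glycolysis was split between its isozymes. Eno2 was higher in striatum than in prefrontal cortex (0.13, SE 0.05, adjusted p = 0.0292) and than in hippocampus (0.43, SE 0.05, adjusted p = 1.79e-10). Eno1 was lower in both other regions than in prefrontal cortex, by −0.38 (SE 0.08) in striatum and −0.30 (SE 0.08) in hippocampus, where Eno2 was lower by −0.30 (SE 0.05). Pkm differed by 0.07 (SE 0.05, adjusted p = 0.264) between striatum and prefrontal cortex and was not called there; with the mouse block and GC scaling it was called at 0.22 (adjusted p = 1.87e-07). Pgam1, the phosphoglycerate mutase, was lower by −0.53 (SE 0.07) in striatum and −0.30 (SE 0.07) in hippocampus than in prefrontal cortex.

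The lactate dehydrogenase subunits separated the regions in different ways. Ldha encodes the subunit that favours lactate formation and Ldhb the one that favours its oxidation, and the enzyme is a tetramer of either or both. Ldha had 30.9, 42.1 and 53.8 RPKM (lowest, median and highest) in prefrontal cortex, 19.8, 27.5 and 35.6 in striatum and 19.1, 29.3 and 37.3 in hippocampus. The prefrontal cortex was highest with some overlap, and both other regions were lower, by −0.60 (SE 0.05, adjusted p = 1.48e-15) in striatum and −0.59 (SE 0.05, adjusted p = 3.33e-15) in hippocampus. Ldhb had 66.2, 90.6 and 112.1 RPKM in prefrontal cortex, 83.2, 112.9 and 144 in striatum and 39.2, 70.2 and 78.1 in hippocampus. It was highest in striatum and lowest in hippocampus, and those 2 regions did not overlap (log2 difference 0.83, SE 0.05, adjusted p = 2.58e-21). It exceeded the prefrontal level in striatum by 0.30 (SE 0.05, adjusted p = 9.42e-07) and was below it in hippocampus by −0.52 (SE 0.05, adjusted p = 3.71e-13). Ldha did not differ by the test between striatum and hippocampus (−0.004, 95% interval −0.11 to 0.10).

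A pair of kinases of the pyruvate dehydrogenase complex had opposite regional orders of their median levels. Pdk1 had 9.48, 10.8 and 12.3 RPKM (lowest, median and highest) in prefrontal cortex, 3.54, 4.51 and 5.76 in striatum and 7.50, 9.07 and 9.86 in hippocampus. All 20 striatal libraries lay below all 40 others, and the log2 difference of −1.26 from the prefrontal cortex (SE 0.04, adjusted p = 7.01e-37) was the largest of the 41 genes in any comparison. It was −0.91 from the hippocampus (SE 0.04, adjusted p = 8.58e-30), and the hippocampus itself was below the prefrontal cortex by −0.35 (SE 0.04, adjusted p = 4.62e-12). Pdk3 had 13.3, 15.2 and 17.4 RPKM in prefrontal cortex, 16.8, 20.3 and 24.4 in striatum and 16.3, 19.5 and 22.8 in hippocampus. The prefrontal cortex was lowest, with overlap, and the differences from it were 0.47 (SE 0.04, adjusted p = 1.17e-15) in striatum and 0.31 (SE 0.04, adjusted p = 1.91e-09) in hippocampus. Striatal and hippocampal ranges of Pdk3 overlapped widely, and its call as higher in striatum than in both others was lost without TMM scaling. Pdk2, the kinase found in most tissues, was lower in striatum, by −0.53 (SE 0.08, adjusted p = 1.36e-07) against the prefrontal cortex and −0.60 (SE 0.08, adjusted p = 8.86e-09) against the hippocampus. The make-up of the kinases differed with region: Pdk1, Pdk2 and Pdk3 stood at means of 10.8, 17.4 and 15.3 RPKM in prefrontal cortex and at 4.46, 11.9 and 20.8 in striatum.

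**Figure D3:**
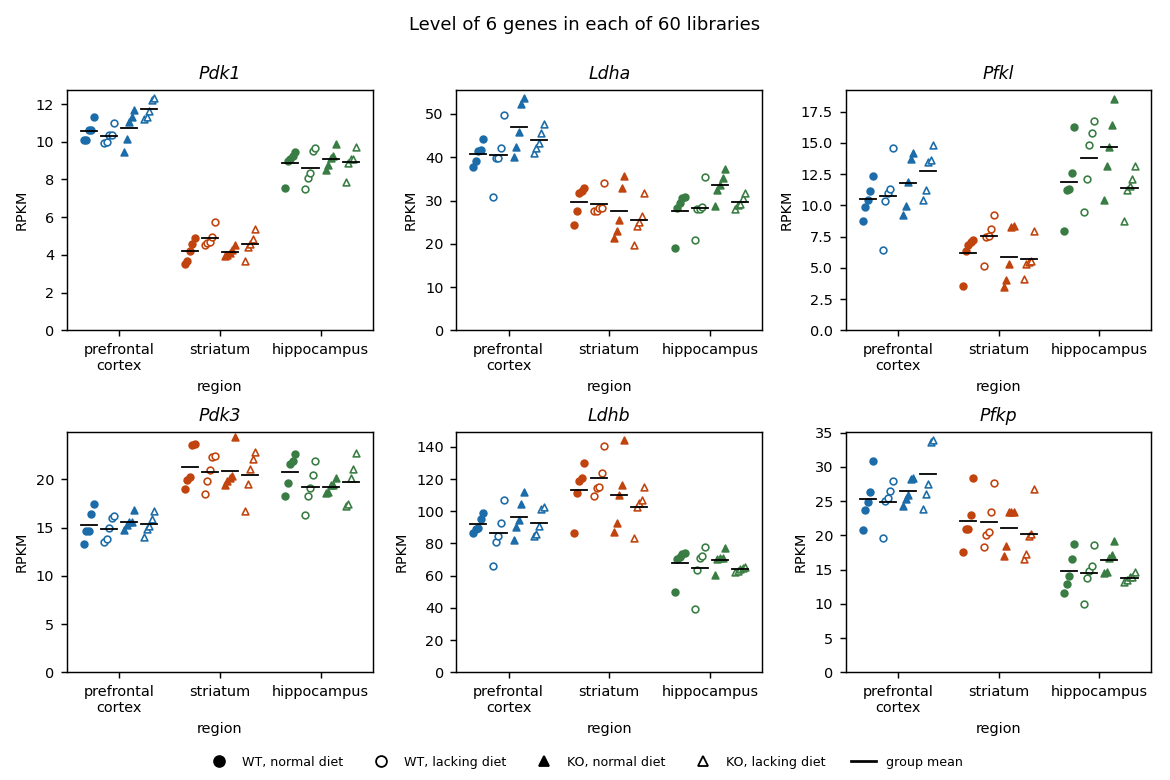
RPKM of 6 genes in each of the 60 libraries by region; circles are WT, triangles KO, filled symbols the normal and open symbols the lacking diet, and short bars the mean of 5. Pdk1 separates the striatum (at most 5.76) from the other regions (at least 7.5), Ldhb separates striatum from hippocampus, and within a region the genotype and diet groups overlap.

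The promoters of these 4 genes are shown because the regional order differs within each pair. Pdk1 and Pdk3 had opposite orders of their median levels. Ldha was highest in prefrontal cortex and Ldhb in striatum, both being lower in hippocampus than in prefrontal cortex. They are the 250 bases before the annotated start, from RefSeq on build GRCm38.p6, written in the direction of the gene: Ldha at chr7:46845554-46845803 (plus strand), Ldhb at chr6:142507958-142508207 (minus), Pdk1 at chr2:71872974-71873223 (plus) and Pdk3 at chrX:93832151-93832400 (minus). Capitals mark ACGTG or its reverse complement CACGT, a form of the core letters to which hypoxia-inducible factor binds. CACGTG holds both and counts as 2 matches. The form GCGTG, present in lower case in the windows of Ldhb, Pdk1 and Pdk3, was not counted.
Ldha: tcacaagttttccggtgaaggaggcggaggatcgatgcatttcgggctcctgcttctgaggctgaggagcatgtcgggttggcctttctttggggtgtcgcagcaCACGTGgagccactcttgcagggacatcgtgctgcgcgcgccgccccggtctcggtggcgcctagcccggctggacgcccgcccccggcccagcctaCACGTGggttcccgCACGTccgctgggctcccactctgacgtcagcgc
Ldhb: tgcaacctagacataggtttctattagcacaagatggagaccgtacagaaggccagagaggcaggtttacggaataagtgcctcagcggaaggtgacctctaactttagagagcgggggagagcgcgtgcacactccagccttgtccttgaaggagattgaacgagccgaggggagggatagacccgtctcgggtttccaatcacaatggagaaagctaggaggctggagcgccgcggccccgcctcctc
Pdk1: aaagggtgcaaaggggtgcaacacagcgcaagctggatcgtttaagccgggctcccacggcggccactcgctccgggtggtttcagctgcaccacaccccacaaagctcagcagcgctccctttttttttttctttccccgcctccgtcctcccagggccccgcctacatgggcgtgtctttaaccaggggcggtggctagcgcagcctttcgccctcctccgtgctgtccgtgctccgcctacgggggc
Pdk3: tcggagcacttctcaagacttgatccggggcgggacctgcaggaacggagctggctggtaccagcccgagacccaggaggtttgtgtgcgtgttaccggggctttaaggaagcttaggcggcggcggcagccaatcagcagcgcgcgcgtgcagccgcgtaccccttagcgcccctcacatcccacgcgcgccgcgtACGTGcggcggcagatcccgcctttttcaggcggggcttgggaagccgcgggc
Ldha held 5 matches, Pdk3 held 1, and the windows of Ldhb and Pdk1 held 0. Of all 32851 windows of this length, 16.6% held at least 1 match, and of the 60 windows of 40 matched members 21 did. A match describes letters only, and no binding was measured here.

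Of the pyruvate dehydrogenase complex, Pdha1, Dlat and Pdhx were lower in striatum than in both other regions, and Pdhb, Dlat, Dld and Pdhx were higher in hippocampus than in both. Pdha1, the catalytic alpha subunit, had 71.5 to 90.3 RPKM in prefrontal cortex, 59.4 to 70.4 in striatum and 73.8 to 94.3 in hippocampus, so that no striatal library reached either other region. Its log2 difference was −0.24 (SE 0.03, adjusted p = 8.78e-10) against the prefrontal cortex and −0.30 (SE 0.03, adjusted p = 1.11e-12) against the hippocampus. Dlat, the acetyl-transferring core, was lower in striatum than in hippocampus by −0.44 (SE 0.05) and higher in hippocampus than in prefrontal cortex by 0.28 (SE 0.05). Pdhb, the beta subunit, moved less, at 0.09 (SE 0.03) for striatum and 0.16 (SE 0.03) for hippocampus against the prefrontal cortex; the striatal call was lost without TMM scaling (adjusted p = 0.0527). Dld, the dehydrogenase that this complex shares with the oxoglutarate dehydrogenase complex, differed by −0.01 (SE 0.04, adjusted p = 0.863) between striatum and prefrontal cortex, and was called lower with the mouse block and GC scaling (−0.14, adjusted p = 2.1e-06). In that fit the hippocampal differences of Dld and Pdhx against the prefrontal cortex fell to 0.02 (adjusted p = 0.565) and 0.03 (adjusted p = 0.493) from 0.13 and 0.10, and the difference of Pdhb between striatum and hippocampus was −0.06 (adjusted p = 0.0768), so that these 3 calls were lost.

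Pyruvate entry was uneven as well. The carrier subunits Mpc1 and Mpc2, which work as a heterodimer, had opposite orders in striatum and hippocampus: Mpc1 was higher in striatum than in hippocampus by 0.31 (SE 0.07, adjusted p = 0.000243) and Mpc2 lower by −0.53 (SE 0.07, adjusted p = 6.66e-09). Mpc1 is among the genes with shared stretches. Against the prefrontal cortex Mpc1 was at 0.17 (SE 0.07, adjusted p = 0.0333) and lost the call with the mouse block and GC scaling (0.13, adjusted p = 0.0725). Pcx, pyruvate carboxylase, which is mainly an enzyme of astrocytes in brain, was higher in striatum by 0.29 (SE 0.11, adjusted p = 0.0175) and 0.39 (SE 0.11, adjusted p = 0.00163) than in prefrontal cortex and hippocampus. Its levels were low, at means between 4.07 and 5.04 RPKM.

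TCA cycle genes differed in both directions. Striatum against prefrontal cortex gave 7 lower and 2 higher of 13 with a median log2 difference of −0.09, hippocampus against prefrontal cortex 4 lower and 3 higher with a median of −0.06, and striatum against hippocampus 7 lower and 4 higher with a median of −0.11. Without TMM scaling the medians were −0.11, 0.003 and −0.19, and hippocampus against prefrontal cortex gave 2 lower and 3 higher, striatum against hippocampus 9 lower and 3 higher. With the mouse block and GC scaling striatum against prefrontal cortex gave 4 lower and 2 higher. Idh3a, the catalytic subunit of the NAD-dependent isocitrate dehydrogenase, had 78.3 to 105.3 RPKM in prefrontal cortex, 57.4 to 76.7 in striatum and 77.5 to 104.8 in hippocampus. The striatum did not overlap with either region, and the differences were −0.38 (SE 0.04, adjusted p = 4.42e-13) and −0.29 (SE 0.04, adjusted p = 3.99e-09). Citrate synthase (Cs), which admits acetyl-CoA, was lower in striatum by −0.23 in both comparisons (SE 0.03), and fumarase (Fh1) by −0.27 and −0.20 (SE 0.04).

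Against that trend Ogdh, the first subunit of the oxoglutarate dehydrogenase complex, was highest in striatum, by 0.25 (SE 0.04, adjusted p = 1.82e-06) over the prefrontal cortex and 0.48 (SE 0.04, adjusted p = 1.24e-14) over the hippocampus. Its partner subunit Dlst was lower there, by −0.09 and −0.08 (SE 0.04 in both). Suclg1, the alpha subunit common to both succinyl-CoA ligases, was higher by 0.33 (SE 0.04, adjusted p = 1.82e-10) and 0.16 (SE 0.04, adjusted p = 0.000512). Of the beta subunits, Suclg2 was higher in striatum than in hippocampus by 0.30 (SE 0.06, adjusted p = 3.72e-05), and Sucla2 was not called there (−0.10, SE 0.05, adjusted p = 0.0598) but was without TMM scaling (−0.19, adjusted p = 6.11e-05). Mdh1 was lower in hippocampus than in prefrontal cortex by −0.19 (SE 0.03, adjusted p = 4.79e-07), and Mdh2 was not called there (−0.06, SE 0.06).

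The balance between the pathways was summarised for each library as the summed RPKM of the 15 glycolysis genes divided by that of the 13 TCA cycle genes, as a description. The ratio was 1.11, 1.42 and 1.65 (lowest, median and highest of 20) in prefrontal cortex, 1.04, 1.34 and 1.57 in striatum and 1.01, 1.29 and 1.504 in hippocampus. Glycolysis sums were 585.3 to 1003 RPKM in prefrontal cortex, 518.2 to 914.7 in striatum and 520.9 to 940.3 in hippocampus. TCA cycle sums varied less, between 529 and 625.1, 484.1 and 610.1, and 517.8 and 627.8 RPKM. The ranges of the ratio overlapped throughout. The mean log2 ratio differed from that of the prefrontal cortex by −0.11 in striatum (SE 0.06 over 20 mice, lower in 16) and by −0.14 in hippocampus (SE 0.05, lower in 15). Per reference transcript length these differences were −0.17 and −0.18.

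The ratio varied with properties of whole libraries. For each library a GC slope was taken over genes outside the 41: the change in log2 level, relative to the mean library of the region, for each 10 points of transcript GC. Slopes ran from −0.31 to 0.26 over the 60 libraries. The 7 libraries with a slope under −0.2, a threshold chosen after seeing the values, had ratios between 1.01 and 1.16: 1 was prefrontal, 4 striatal and 2 hippocampal. The other 53 libraries had ratios between 1.20 and 1.65. Over all 20 libraries of a region, Pearson's r between the ratio and the slope was 0.930 in prefrontal cortex, 0.943 in striatum and 0.835 in hippocampus. A separate GC scaling of the ratio used a curve for each library against the mean of all 60 libraries, not of its region. It can therefore also remove regional differences in level that go with GC. With it, the difference in mean log2 ratio from the prefrontal cortex was 0.02 in striatum (SE 0.02) and −0.01 in hippocampus (SE 0.03), against −0.11 and −0.14 before. The scaled ratio still had an r with the slope of 0.61 in prefrontal cortex, 0.58 in striatum and 0.28 in hippocampus. Pearson's r between the ratio and RNA integrity was −0.47 in prefrontal cortex, −0.29 in striatum and −0.68 in hippocampus (n = 20 each). With the GC-scaled ratio it was −0.25, −0.19 and −0.54. The median RNA integrity number was 8.5, 8.5 and 8.75 in that order. What sets the slope, and the part of RNA integrity in the ratio, was not tested. Across the 41 genes the SD of log2 level within groups rose with transcript GC (Spearman's rho 0.79, Pearson's r 0.76, n = 41 genes measured in the same libraries, so not independent). The median SD was 0.23 for glycolysis, 0.13 for the TCA cycle and 0.16 for all tested genes.

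**Figure D4:**
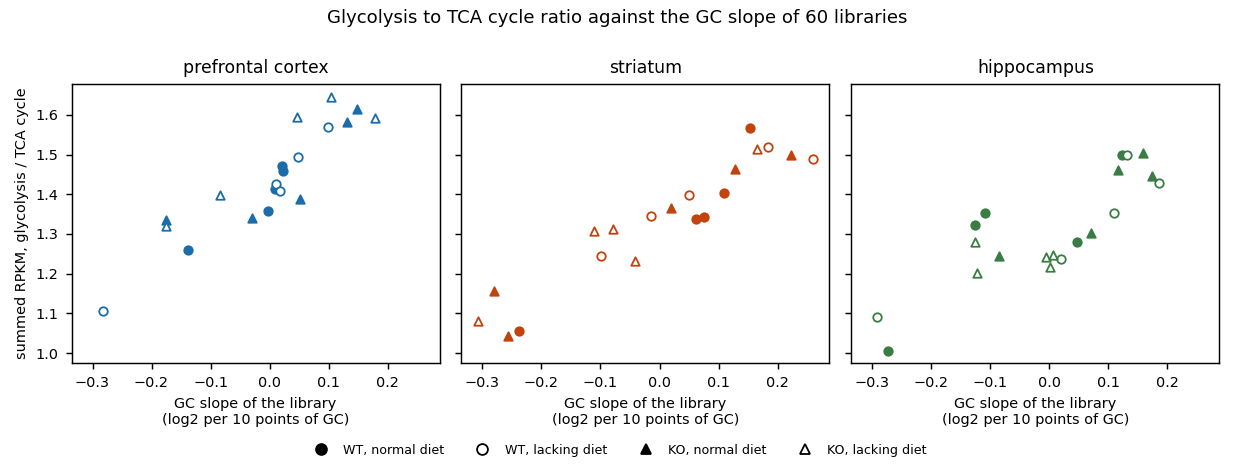
Ratio of summed glycolysis to summed TCA cycle RPKM (y axis) against the GC slope of the library (x axis, log2 per 10 points of transcript GC) for 20 libraries in each region; circles are WT, triangles KO, filled symbols the normal and open symbols the lacking diet. The 7 libraries left of −0.2 have ratios of 1.16 or less, and all others of 1.20 or more.

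No enzyme gene of the 41 passed the test for loss of Glo1 in any region. In the prefrontal cortex, KO against WT over both diets, edgeR called 0 of 41 at an adjusted p under 0.05, against 0.673% of all 13223 genes. At an unadjusted p under 0.05 there were 10 of 41, against 14.1% of all genes. DESeq2 called 2 of the 41 and limma on log2(RPKM + 1) called 0. The shares of all genes called by DESeq2 and limma are not given here. In the striatum edgeR called 0, against 0.203% of all genes, with 1 of 41 at an unadjusted p under 0.05 (5.78% of all genes). In the hippocampus it called 0, against 0.164% of all genes, with 2 of 41 at an unadjusted p under 0.05 (4.24% of all genes). DESeq2 and limma called 0 in both of these regions. Glo1 itself differed by −6.69 (SE 0.17), −6.39 (SE 0.16) and −7.26 (SE 0.18) on the log2 scale in prefrontal cortex, striatum and hippocampus.

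The values nearest to a call were in prefrontal cortex. Eno1 had 8.29, 12.0 and 16.7 RPKM (lowest, median and highest) in the 10 WT libraries and 11.3, 15.4 and 18.2 in the 10 KO libraries. KO libraries were higher with wide overlap, at a log2 difference of 0.30 (SE 0.09, 95% interval 0.13 to 0.48, adjusted p = 0.0963; range over alternatives 0.0455 to 0.153). Mpc2 had 4.24, 5.46 and 6.41 RPKM in WT and 3.40, 4.58 and 5.51 in KO, again overlapping, with a difference of −0.28 (SE 0.08, 95% interval −0.44 to −0.11, adjusted p = 0.0963; range 0.0491 to 0.155). Pkm was at 0.19 (SE 0.07, adjusted p = 0.186). Adding RNA integrity as a covariate called Eno1 (adjusted p = 0.0455), and DESeq2 called Eno1 (0.0495) and Mpc2 (0.0491). Leaving out WT mouse 226 on the lacking diet, whose Eno1 level of 16.7 RPKM was the highest of the WT libraries, called 4 genes: Eno1, Mpc2, Pgk1 and Pkm. Without KO mouse 267 or KO mouse 268 on the normal diet, whose Eno1 levels of 11.7 and 11.3 RPKM were the lowest KO values, Eno1 was called. The shares of all genes called in these alternative fits are not given here. Eno1 and Pgk1 are among the genes with shared stretches.

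Of the 15 glycolysis genes, 13 had a positive difference in KO prefrontal cortex, with a median of 0.12 against 0.00 for all genes. The 13 TCA cycle genes had a median of 0.03 there, and 9 were positive. In the striatum the glycolysis median was −0.05 with 3 of 15 positive, and in hippocampus 0.07 with 14 of 15 positive. The median GC slope was 0.01 in WT and 0.05 in KO prefrontal cortex, 0.07 and −0.06 in striatum, and 0.03 and 0.004 in hippocampus, so it moved with these medians in prefrontal cortex and striatum. After GC scaling the glycolysis medians were 0.12, 0.04 and 0.06, which left the prefrontal and hippocampal values and turned the striatal one. The scaled fit called 0 of the 41 genes in each region. Of all genes it called 1.8%, 0.277% and 0.199% in prefrontal cortex, striatum and hippocampus. In the prefrontal cortex 15 of 41 were under 0.05 unadjusted, against 18% of all genes. The median sums of marker genes in WT and KO prefrontal cortex were 1664 and 1566 RPKM for neurons, 1033 and 919.5 for astrocytes and 379.8 and 370.9 for oligodendrocytes, and their part in these values was not tested.

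Mpc1 lies on chromosome 17 (8282904 to 8297661 on the plus strand, GRCm38), the chromosome of Glo1. Its difference between KO and WT was −0.21 (SE 0.09, adjusted p = 0.740) in striatum, −0.17 (SE 0.12, adjusted p = 0.9999) in hippocampus and −0.06 (SE 0.09, adjusted p = 0.821) in prefrontal cortex, none of them called. Next in order of p in striatum were Aldoc at −0.20 (SE 0.10, adjusted p = 0.740) and Idh3a at 0.09 (SE 0.06, adjusted p = 0.740). Neither had an unadjusted p under 0.05. In the hippocampus the smallest p belonged to Ldha at 0.18 (SE 0.07), Mdh1 at 0.11 (SE 0.05) and Mdh2 at 0.14 (SE 0.08), each with an adjusted p of 0.9999. Of the 41 genes, 2 had an unadjusted p under 0.05 there.

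**Figure D5:**
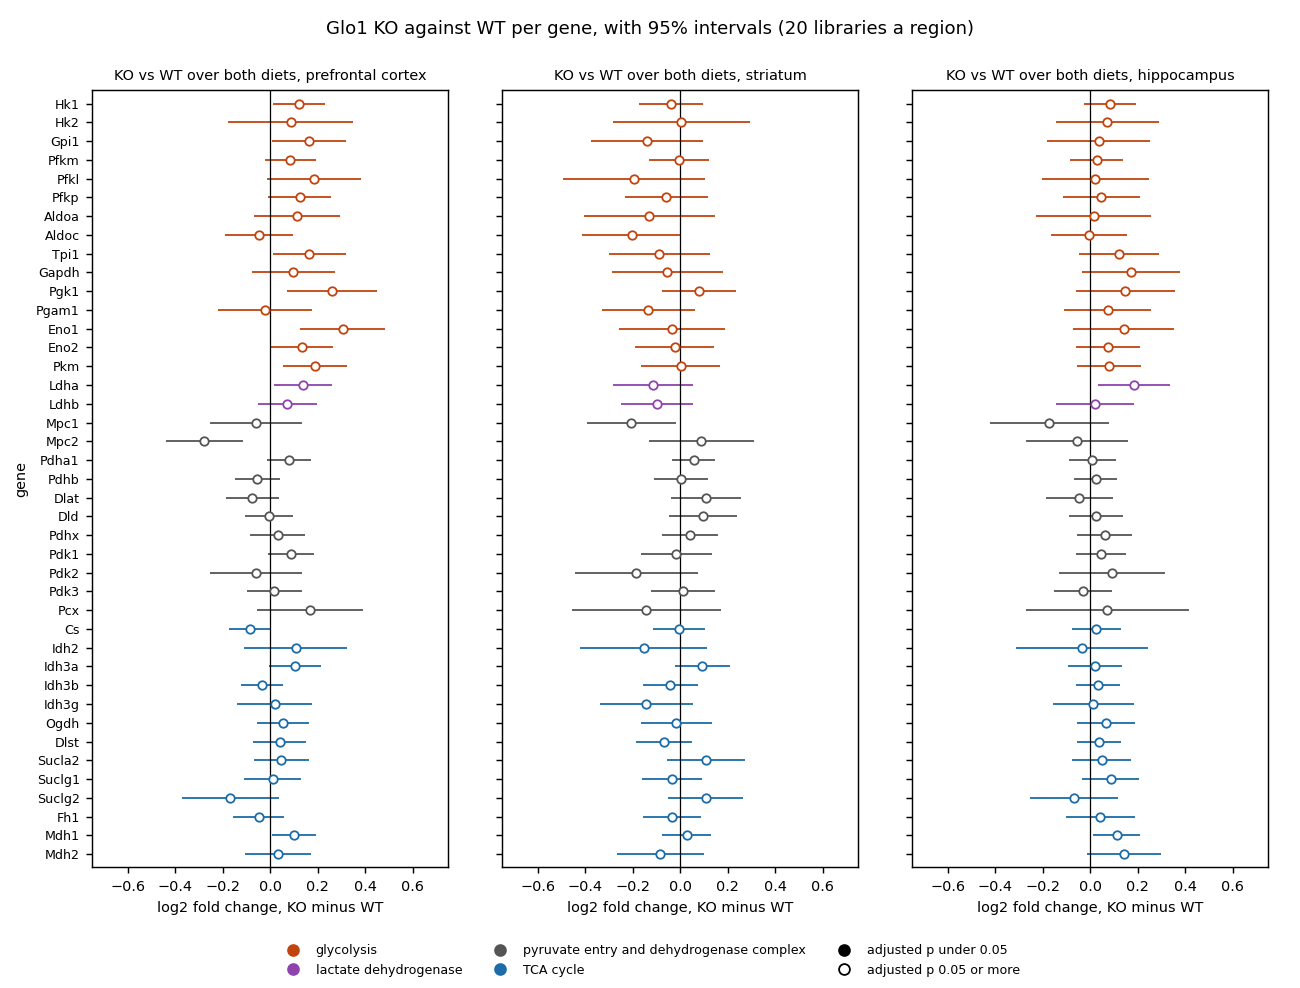
Log2 fold change of KO against WT over both diets for each of the 41 genes in the 3 regions, with bars for the 95% interval over 20 libraries a region; open points have an adjusted p of 0.05 or more. All points are open, and the prefrontal glycolysis points lie mostly right of 0.

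Diet left no called difference either. The lacking against the normal diet over both genotypes gave 0 of 41 called by edgeR in prefrontal cortex, striatum and hippocampus, where 0% of all genes were called, and 0 by DESeq2 and limma. At an unadjusted p under 0.05 there were 0, 1 and 0 of the 41, against 3.28%, 3.06% and 2.15% of all genes. The vitamin B6 values recorded for the mice did differ: they were 3.02 to 4.86 ng/µl in WT on the lacking and 58.25 to 77.48 on the normal diet, and 2.25 to 5.63 and 60.09 to 78.09 in KO. The 1 gene below 0.05 was Pdk1 in striatum, at 0.18 (SE 0.07, 95% interval 0.03 to 0.32, adjusted p = 0.9999). Next in striatum were Pdhb at −0.11 (SE 0.06) and Hk2 at 0.25 (SE 0.14). In the prefrontal cortex Mpc2 (−0.16, SE 0.08), Idh3b (−0.08, SE 0.04) and Pdhb (−0.08, SE 0.05) had the smallest p, and in hippocampus Pfkp (−0.12, SE 0.08), Pfkm (−0.08, SE 0.05) and Dlat (0.09, SE 0.07). The 95% intervals of the 41 genes lay between −0.36 and 0.39 in prefrontal cortex, −0.36 and 0.54 in striatum and −0.49 and 0.31 in hippocampus, which bounds the diet differences these libraries leave possible.

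The comparisons within single groups also called 0 of the 41 genes by edgeR in each region. KO against WT with normal feeding called 0 of the 41, while 0.121%, 0.0601% and 0.0299% of all genes were called there in that order (prefrontal cortex, striatum, hippocampus), and 6, 0 and 7 of the 41 had an unadjusted p under 0.05, against 5.37%, 2.43% and 7.48% of all genes. On the lacking diet 0.234%, 0.128% and 0.0672% of all genes were called, and 5, 1 and 3 of the 41 were under 0.05 unadjusted, against 12.4%, 4.58% and 6.02%. The diets within WT and within KO called 0% of all genes; within WT 0, 1 and 0 of the 41 were under 0.05 unadjusted, against 2.27%, 2.91% and 4.03%, and within KO 1, 0 and 3, against 5.19%, 1.68% and 6.56%. KO mice on the lacking diet, set against WT mice on the normal diet, called 0.28%, 0.0826% and 0.0149% of all genes. In the prefrontal cortex the KO mice on the lacking diet had 4.11 ± 0.488 RPKM of Mpc2 and the WT mice on the normal diet 5.50 ± 0.637 (SD, n = 5). DESeq2 called Mpc2 in that comparison (log2 difference −0.44, adjusted p = 0.0277) and so did edgeR with RNA integrity as a covariate (−0.47, adjusted p = 0.0487), while a fit of those groups alone called Eno1 (0.39, adjusted p = 0.0127). At an unadjusted p under 0.05 edgeR had 5 of 41 there, against 13% of all genes. In the striatum and hippocampus 0 and 1 were, against 5.06% and 3.62%. The interaction of genotype and diet called 0% of all genes, and 0, 0 and 6 of the 41 were under 0.05 unadjusted in prefrontal cortex, striatum and hippocampus, against 3.17%, 1.7% and 9.45%. The 6 hippocampal genes were Pdhb, Dld, Sucla2, Pfkl, Ogdh and Mpc2, with adjusted p of 0.513 to 0.517.

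Whether the genotype or diet difference itself differed between regions was tested in the fit of 60 libraries, with 0 of 41 called in the 6 tests. Of all genes 0.00718% were called for the genotype difference between hippocampus and prefrontal cortex and 0% in the other 5 tests. At an unadjusted p under 0.05 the genotype tests had 5, 0 and 1 of the 41 for striatum against prefrontal cortex, hippocampus against prefrontal cortex and striatum against hippocampus, with 9.18%, 6.03% and 5.81% of all genes. The diet tests had 0, 0 and 1, with 1.47%, 2.86% and 2.71%. The 5 genes included Mpc2 (0.37, SE 0.15, adjusted p = 0.499), Ldha (−0.25, SE 0.11, adjusted p = 0.499) and Eno1 (−0.34, SE 0.15, adjusted p = 0.536). The mouse block left all 6 counts at 0. A different effect of Glo1 loss by region was therefore not shown for any of these genes.

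Some genes around the pathway reached larger regional differences than any of the 41. Of 54 listed transporters, regulators, rarer isozymes and shuttle genes 44 were tested. In striatum against prefrontal cortex 11 were called higher and 13 lower, with 35.9% and 34% of all genes. In hippocampus against prefrontal cortex 8 were called higher and 12 lower, with 30.2% and 29.1% of all genes. In striatum against hippocampus 17 were called higher and 13 lower, with 33.6% and 32.9% of all genes. The genes named here were chosen after their values were seen. Pdp1, the phosphatase that reverses the action of the Pdk kinases, had 56.1, 64.8 and 92.5 RPKM (lowest, median and highest) in prefrontal cortex, 70.5, 91.5 and 114 in striatum and 21.6, 24.9 and 28.5 in hippocampus. The hippocampus was far below both, by −1.48 (SE 0.06) against the prefrontal cortex, and the striatum was above the prefrontal cortex by 0.47 (SE 0.06). Me2, the mitochondrial malic enzyme, had 22.04 to 40.4 RPKM in striatum and 6.58 to 11.1 in the other regions, a log2 difference of 1.82 (SE 0.05) against the prefrontal cortex. Cytosolic Me1 was lower in striatum, by −0.89 (SE 0.05) against each other region.

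Regulators of phosphofructokinase also differed. Pfkfb3, which makes the bisphosphate that activates it, was higher in striatum by 0.55 (SE 0.05) against the prefrontal cortex and 0.60 (SE 0.05) against the hippocampus, and Tigar, which removes that activator, was lower by −0.71 (SE 0.04) and −0.47 (SE 0.04). The neuronal glucose transporter Slc2a3 was highest in prefrontal cortex, at 14.5 to 17.8 RPKM against 12.0 to 15.5 in striatum and 10.5 to 14.98 in hippocampus. The neuronal monocarboxylate transporter Slc16a7 was lower in striatum by −0.53 (SE 0.05) and in hippocampus by −0.31 (SE 0.05), and Slc16a1, found in glia and vessels, was higher in hippocampus by 0.46 (SE 0.07). For KO against WT and for diet, over both levels of the other factor, 0 of the 43, 42 and 42 tested genes of these lists were called in prefrontal cortex, striatum and hippocampus. Of all genes 0.673%, 0.203% and 0.164% were called for genotype there, and 0% for diet.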

How the data were processed

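Poly(A) RNA selected from 2 µg of total RNA was sequenced as single reads of 75 bases, per the labels' protocols. The deposited counts are whole reads per gene, and the deposited RPKM values are those counts relative to gene length and to the library total, as the authors give them; for all 18514 genes with a count, counts and RPKM implied 1 gene length in all libraries. STAR 2.7.1a, HTSeq 0.9.1 and mm10 are listed in the submitters' processing notes; their settings, strand and annotation are not given in the sources used here.

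From the counts, edgeR 4.0.16 (R 4.3.3) was fitted with TMM factors and its quasi-likelihood test: 1 fit a region (20 libraries, 4 groups) for genotype and diet, and 1 fit of 60 libraries (12 groups) for regions. Genes passed filterByExpr (minimum count 10, total 15): 13223 in the prefrontal cortex, 13311 in the striatum, 13393 in the hippocampus and 13930 over 60 libraries, with all 41 members in each. P-values were adjusted by Benjamini-Hochberg over all genes, with a threshold of 0.05. RPKM served for levels. DESeq2 1.42.0, limma 3.58.1 on log2(RPKM + 1) and the settings under the closing section were alternatives. The code was tested on simulated data.

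The members and lists were chosen with earlier results of these data known. Named were the 5 largest called differences of each regional comparison, every call and the 3 smallest p-values for genotype and for diet in each region, members on the chromosome of Glo1, isozyme sets, the highest and lowest levels and Glo1; other genes were named after their values were seen.

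Libraries with the same mouse number come from 1 animal, which pairs the regions by design. Their deviations from group means correlated with a mean r of 0.06 (60 pairs, −0.46 to 0.48), against −0.01 for different mice of a group (240 pairs). Replicates of a group differed beyond counting noise (chi-square per gene 1.94 to 26.2 over 120 pairs). Transcript GC and length, shared stretches and overlaps came from GENCODE M21 and were known for 13616 of 13930 genes.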

Additional observations from a re-analysis of the deposited data

Results flagged for a closer look

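Each value here stood apart from the other 4 libraries of its group by more than Dixon's limit at 5 samples (gap over range above 0.71). The levels of 11 genes and the glycolysis to TCA cycle ratio were tested in each of 12 groups, 144 tests in all. Of these, 6 values stood apart, all of them gene levels. Chance gives about 1 in 20 tests, so 6 of 144 is not an excess over it.

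In 1 hippocampal library, WT mouse 286 on the normal diet, 3 genes were low together. Pdk1 was at 7.546 RPKM against 8.973 to 9.483 in the others, Ldha at 19.11 against 28.22 to 30.72, and Ldhb at 49.94 against 70.14 to 74.3. The GC slope of that library was −0.2741. In the striatum of WT mouse 273 on the normal diet, with a slope of −0.2385, Pfkl was at 3.513 RPKM against 6.385 to 7.263.

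Ldha was high in the striatum of WT mouse 241 on the lacking diet, at 34.15 RPKM against 27.49 to 28.35, in the library with the highest GC slope, 0.2596. Pdk3 was high in the striatum of KO mouse 268 on the normal diet, at 24.36 RPKM against 19.37 to 20.37, with a slope of 0.02. The part of the slope in these values was not tested.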

How the results depend on the processing

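The genes chosen by the naming rule kept their direction in the alternatives run for them. Among the regional differences called for the other members, without TMM scaling, with the replicate block, with the block and GC scaling, or in WT mice on the normal diet, 1 changed sign: Pgam1 for striatum against hippocampus, from −0.23 to 0.03 in WT mice on the normal diet. Differences near 0 that were not called, such as those of Gapdh and Mdh2 between striatum and hippocampus (−0.03 and −0.11, against 0.15 and 0.05 in those mice), also changed sign. With the replicate block (mouse), 35, 26 and 35 of the 41 genes were called for striatum against prefrontal cortex, hippocampus against prefrontal cortex and striatum against hippocampus, against 34, 24 and 34; with the replicate block and GC scaling, added after seeing the data, 30, 26 and 34. The replicate block changed no other count by over 1.5 times. In WT mice on the normal diet alone, with 5 libraries a region, the counts were 18, 12 and 15, and with a minimum of 0.5 in absolute log2 difference 6, 3 and 8. Leaving out 1 mouse gave 30 to 34, 22 to 26 and 31 to 35. For KO against WT in the prefrontal cortex the count of 0 became 1 with RNA integrity as a covariate, 2 with DESeq2 and 0 to 4 leaving out 1 mouse. For KO mice on the lacking diet set against WT mice on the normal diet there it became 1 with RNA integrity, 1 with DESeq2, 1 in the fit of those groups alone and 0 to 1 leaving out 1 mouse; it was 1 without WT mouse 226 and without WT mouse 241, both on the lacking diet (Mpc2). For KO against WT on the lacking diet it was 0 to 1, with Mpc2 called without mouse 226. The causes were not tested, and the shares of all genes called in these alternative fits are not given here. Of 219 alternatives to the within-region and regional-difference counts 214 gave 0, as did 594 of 600 fits leaving out 1 mouse. GC scaling moved the log2 glycolysis to TCA cycle ratio for striatum against prefrontal cortex from −0.11 (SE 0.06) to 0.02 (SE 0.02) and for KO against WT in the striatum from −0.08 (SE 0.08) to 0.001 (SE 0.03). That scaling was set against the mean of all 60 libraries, so it can also remove regional differences that go with GC.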
